A study of Drosophila melanogaster with 9 samples.

Results

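Voltage-gated potassium channels were followed through 9 genes of the fruit fly Drosophila melanogaster, which encode the pore-forming subunits Sh, Shab, Shal, Shaw, eag, Elk, sei, slo and KCNQ. The genes were taken by symbol as a family, a choice made with earlier results of these data known, and all 9 had a row among the 17558 genes counted and enough reads to be tested. Poly(A)-selected RNA of whole heads from adult females aged 1 to 2 days, raised at 25 °C and 60% humidity, was sequenced in 9 libraries, 3 in each of 3 groups. The groups were flies homozygous for an allele of Ime4 (Ime4hom), flies heterozygous for it (Ime4het) and control flies (wt). The nature of the allele, the genetic background and the number of heads in a library are not given in the labels, and they do not say whether libraries of 1 group stem from separate cultures. The p-values therefore measure only how far these libraries spread, which may be technical. Ime4, listed in the annotation as Mettl3, encodes the methyltransferase that places N6-methyladenosine (m6A) on messenger RNA.

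The channels open when the membrane is depolarized and let potassium out of the cell, which ends the action potential and sets how often a neuron fires. Sh, Shab, Shal and Shaw found the name-giving subfamilies of the Shaker-related channels. Sh carries a fast, inactivating current in axons and muscle, Shab a slowly inactivating delayed rectifier current, Shal a fast current of cell bodies and dendrites, and Shaw a current with weak voltage dependence in the fly. The genes eag, Elk and sei form the ether-a-go-go family, and sei is the fly relative of the human cardiac channel gene HERG. The product of slo opens on depolarization together with calcium, and KCNQ encodes the fly channel of the type that carries the slow M current in vertebrate neurons.

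The library labels were checked with Ime4 itself, which had 3, 3 and 2 reads in the Ime4hom libraries, 8, 13 and 16 in the Ime4het libraries and 17, 19 and 18 in the wt libraries. Reads in genes numbered between 2730289 and 4272550 per library, and between 0.400% and 0.523% of them fell in the 9 channel genes. Levels are given below as library-scaled counts (CPM) after TMM scaling of the library sizes, and as CPM per kb of annotated exon where genes are compared with each other. Several libraries held transcripts of other tissues. The summed level of 20 gut enzyme genes was 655, 733 and 52.1 CPM in Ime4hom libraries 1, 2 and 3, between 20.2 and 53.8 CPM in the Ime4het libraries and between 15.8 and 72.1 CPM in the wt libraries. The summed level of 13 ovary genes was 348 CPM in wt library 3 and between 0.561 and 3.97 CPM in the other libraries. For the channel genes, the values without these libraries are given where they end a call or move a value by over 1.5 times. Fits without Ime4hom libraries 1 and 2 keep 1 Ime4hom library, so they show nothing of the spread within that group. They are among the 20 alternatives counted below.

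Per length of exon, Sh was the highest of the 9 genes in every group and Elk the lowest. In wt heads Sh averaged 145 ± 20.4 CPM per kb (SD, n = 3), followed by slo at 53.3 ± 2.18, Shab at 40.1 ± 2.35, Shal at 32.1 ± 3.84, eag at 21.0 ± 3.37, Shaw at 18.8 ± 1.50, KCNQ at 13.1 ± 2.43, sei at 12.4 ± 1.97 and Elk at 6.19 ± 0.603 CPM per kb. Neighbours in this order had separate libraries, except eag and Shaw, and KCNQ and sei, whose libraries overlapped. The same order held in Ime4het heads down to Shaw, with eag and Shaw again overlapping at 16.9 ± 1.25 and 16.7 ± 0.727 CPM per kb, and sei and KCNQ overlapping at 11.1 ± 1.47 and 10.2 ± 0.971 CPM per kb. In Ime4hom heads Shab came after Shal, at 22.0 ± 1.65 CPM per kb against 26.5 ± 4.43 for Shal, and its libraries overlapped those of both Shal and eag. The exon length is the union over all annotated transcripts of a gene, 17 for Sh and 23 for slo, so a gene with many alternative exons has a lower level per kb than its expressed transcripts would give.

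**Figure D1:**
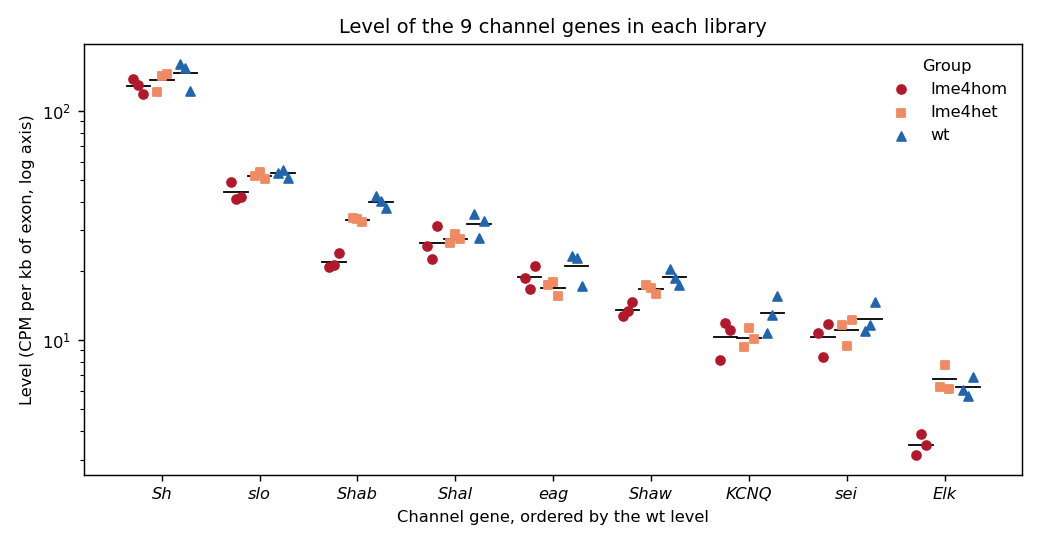
Level of each of the 9 channel genes in each library, in CPM per kb of annotated exon on a log axis, with Ime4hom circles left of Ime4het squares and wt triangles and a bar at each group mean of 3 libraries. For Shab, Shaw, Elk and slo the Ime4hom libraries lie below every wt library, while the groups overlap for Sh, Shal, eag, KCNQ and sei.

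The first comparison asked how the channel genes differ between Ime4hom and wt heads. Shab, Elk and Shaw fell, and no channel gene rose. These are 3 of 9 genes at an adjusted p under 0.05 (quasi-likelihood test in edgeR, Benjamini-Hochberg adjusted over all 8972 tested genes), beside a background of 19.7% of all tested genes called in either direction and 8.77% called lower. All 9 fold changes were negative, as were 48.0% of those of all tested genes, and their median was -0.28 on the log2 scale, beside 0.02 over all tested genes. In 4 of 9 genes (Shab, Shaw, Elk and slo) every Ime4hom library lay below every wt library, beside 15.9% of all tested genes. The heads were measured in bulk, so fewer cells that express a channel and less RNA per cell cannot be told apart.

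Shab (FBgn0262593), on chromosome 3L from 2895017 to 2959579 of assembly BDGP6, plus strand, had 237, 241 and 271 CPM in the Ime4hom libraries, 385, 382 and 369 CPM in the Ime4het libraries and 480, 460 and 427 CPM in the wt libraries. The 3 groups did not overlap, with Ime4hom lowest, Ime4het between and wt highest. Shab fell in Ime4hom against wt heads by 0.87 ± 0.11 on the log2 scale (SE, adjusted p = 1.27e-04), a ratio of 0.547 with a 95% interval from 0.466 to 0.643. The call was kept under all 20 alternatives, with log2 fold changes between -0.93 and -0.65.

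Elk (FBgn0011589), on chromosome 2R from 17873939 to 17926695, plus strand, was the gene with the fewest reads of the 9, with 70, 74 and 76 reads in the Ime4hom libraries, 119, 149 and 107 in the Ime4het libraries and 87, 107 and 125 in the wt libraries. Scaled to depth it had 16.8, 20.7 and 18.5 CPM in the Ime4hom libraries, 33.4, 41.7 and 32.7 CPM in the Ime4het libraries and 32.3, 30.4 and 36.7 CPM in the wt libraries. The Ime4hom libraries lay below all 6 others, and the Ime4het and wt libraries overlapped. Elk fell in Ime4hom against wt heads by 0.83 ± 0.17 on the log2 scale (adjusted p = 0.00378 by edgeR), a ratio of 0.562 with a 95% interval from 0.438 to 0.721. The call was kept under all 20 alternatives, with log2 fold changes between -0.92 and -0.71.

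Shaw (FBgn0003386), on chromosome 2L from 3718185 to 3729145, plus strand, had 63.7, 66.5 and 73.0 CPM in the Ime4hom libraries, 86.7, 84.0 and 79.5 CPM in the Ime4het libraries and 102, 93.1 and 86.8 CPM in the wt libraries. As for Shab, the groups did not overlap, but the highest Ime4het and the lowest wt library lay next to each other. Shaw fell in Ime4hom against wt heads by 0.47 ± 0.12 on the log2 scale (adjusted p = 0.0122 by edgeR), a ratio of 0.722 with a 95% interval from 0.607 to 0.859. Without Ime4hom libraries 1 and 2, which held the gut transcripts, the log2 fold change of Shaw was -0.38. When wt library 3 was left out as well it was -0.41. The call of Shaw was kept under 18 of 20 alternatives and was not kept in these 2 fits. Both fits keep 1 Ime4hom library, so whether Shaw differs beyond the spread of that group cannot be told from them. In the same fits Shab was at -0.77 and -0.79, and Elk at -0.86 and -0.76.

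**Figure D2:**
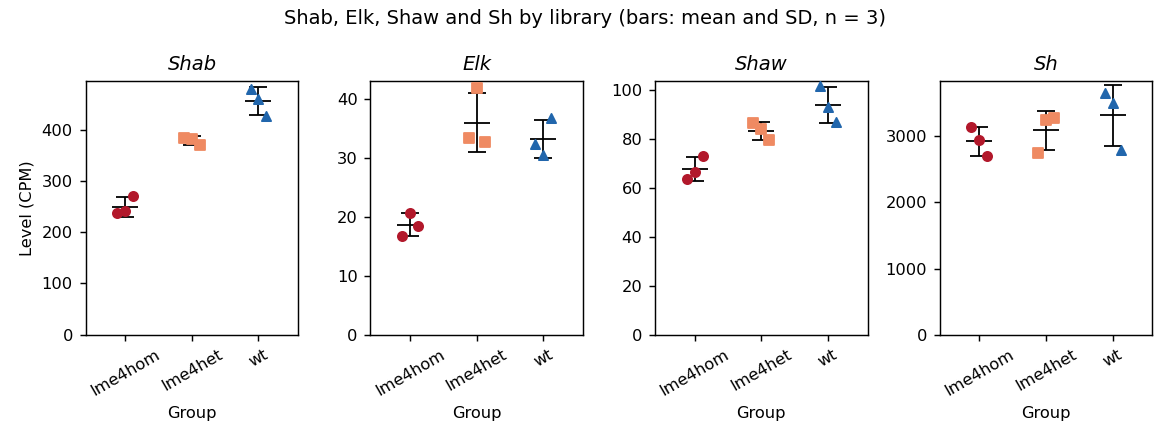
Level in CPM of Shab, Elk and Shaw, the channel genes that fell in Ime4hom against wt heads, and of Sh, in each of the 9 libraries, with bars at the mean and SD of 3 libraries. The Ime4hom libraries lie below all others for Shab, Elk and Shaw, and between 2701 and 3135 CPM for Sh, where they overlap the other groups.

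The other 6 genes did not pass the threshold in Ime4hom against wt heads. Sh (FBgn0003380), on chromosome X from 17924307 to 18063247, minus strand, had 98534 reads over all libraries, more than the other 8 genes together. Its level was 3135, 2940 and 2701 CPM in the Ime4hom libraries, 2751, 3242 and 3285 CPM in the Ime4het libraries and 3662, 3502 and 2787 CPM in the wt libraries. The groups overlapped, and the ratio of Ime4hom to wt heads was 0.882 with a 95% interval from 0.721 to 1.08, so a decrease as large as that of Shab lies outside the interval (adjusted p = 0.379 by edgeR). The log2 fold change of -0.18 was -0.29 without wt library 3 and -0.11 without wt library 1. For slo (FBgn0003429), on chromosome 3R from 24662491 to 24711595, plus strand, the level was 498, 420 and 427 CPM in the Ime4hom libraries, 528, 546 and 513 CPM in the Ime4het libraries and 544, 561 and 518 CPM in the wt libraries. Every Ime4hom library lay below every other library, and the log2 fold change against wt was -0.27 ± 0.11 (adjusted p = 0.100 by edgeR).

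Shal (FBgn0005564), on chromosome 3L from 19566851 to 19584568, minus strand, had 119, 104 and 144 CPM in the Ime4hom libraries, 122, 133 and 127 CPM in the Ime4het libraries and 163, 129 and 153 CPM in the wt libraries. Its log2 fold change in Ime4hom against wt heads was -0.28 ± 0.14 (adjusted p = 0.176 by edgeR). This value moved with single libraries. Without Ime4hom library 3, the highest of its group, the log2 fold change was -0.41 (adjusted p = 0.0199 by edgeR). In that fit 2477 of 9147 tested genes were called, beside 1765 of 8972 with all libraries. The log2 fold change of Shal was -0.18 without Ime4hom library 2, -0.21 without wt library 1 and -0.37 without wt library 2.

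KCNQ (FBgn0033494), on chromosome 2R from 10145897 to 10192394, minus strand, had 31.6, 45.8 and 42.6 CPM in the Ime4hom libraries, 35.9, 43.4 and 39.1 CPM in the Ime4het libraries and 41.6, 50.0 and 60.4 CPM in the wt libraries. Its log2 fold change in Ime4hom against wt heads was -0.35 ± 0.17 (adjusted p = 0.175 by edgeR), with overlapping groups. It was -0.20 without wt library 3 and -0.22 without Ime4hom library 1. In the ether-a-go-go family, sei (FBgn0003353), on chromosome 2R from 24047411 to 24053035, plus strand, averaged 33.7 ± 5.50 CPM in Ime4hom, 36.2 ± 4.83 CPM in Ime4het and 40.5 ± 6.44 CPM in wt heads (SD, n = 3 each). The log2 fold change of sei in Ime4hom against wt heads was -0.27 ± 0.17 (adjusted p = 0.305 by edgeR), and it was -0.13 without wt library 3 and -0.16 without Ime4hom library 2. For eag (FBgn0000535), on chromosome X from 14955477 to 15009989, plus strand, the level was 197, 177 and 223 CPM in the Ime4hom libraries, 184, 190 and 164 CPM in the Ime4het libraries and 247, 242 and 182 CPM in the wt libraries. Here wt library 3 lay below both other wt libraries and within the range of the Ime4hom group, and the log2 fold change in Ime4hom against wt heads was -0.17 ± 0.14 (adjusted p = 0.425 by edgeR). That value was -0.30 without wt library 3, -0.26 without Ime4hom library 3, and between -0.11 and -0.10 without wt library 1 or 2 or Ime4hom library 2.

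The libraries with transcripts of other tissues moved these uncalled values in both directions. Without Ime4hom libraries 1 and 2 the log2 fold changes in Ime4hom against wt heads were -0.32 for Sh, -0.36 for slo, -0.06 for Shal, -0.28 for KCNQ, -0.10 for sei and -0.03 for eag. When wt library 3 was left out as well they were -0.41 for Sh, -0.37 for slo, -0.01 for Shal, -0.11 for KCNQ, 0.06 for sei and -0.13 for eag. Each of these values rests on 1 Ime4hom library.

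Exons of KCNQ and sei overlap exons of genes on the opposite strand. Whether reads were counted by strand is not given in the sources used here, so how reads in these stretches were assigned is not known. Reads counted as ambiguous between genes are missing from all gene counts. KCNQ overlaps CG18011 over 265 bp and asRNA:CR45133 over 798 bp, which had 474 and 35 reads over all libraries. For sei the overlaps are 359 bp with gammaSnap1 and 119 bp with ppk29, which had 2665 and 104 reads. No exon of the other 7 channel genes overlaps an exon of another annotated gene.

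The comparison of Ime4hom with Ime4het heads, which differ in the number of copies of the allele, called Shab and Elk, both lower in Ime4hom heads. These are 2 of 9 genes, beside a background of 5.48% of tested genes called in either direction and 2.11% called lower. Shab fell by 0.60 ± 0.11 on the log2 scale (adjusted p = 0.00633 by edgeR), a ratio of 0.659 with a 95% interval from 0.561 to 0.773. Elk fell by 0.95 ± 0.17 (adjusted p = 0.00565 by edgeR), a ratio of 0.518 with a 95% interval from 0.405 to 0.663. Both calls were kept under all 20 alternatives. Shaw and slo also had every Ime4hom library below every Ime4het library, with log2 fold changes of -0.30 ± 0.12 (adjusted p = 0.160 by edgeR) and -0.24 ± 0.11 (adjusted p = 0.241 by edgeR). With Shab and Elk these are 4 of 9 genes, beside 12.9% of all tested genes. Fold changes were negative in 7 of 9 genes, beside 47.4% of all tested genes. The other 5 genes had log2 fold changes between -0.10 for sei and 0.15 for eag. For eag it was 0.06 without Ime4hom library 3, 0.07 without Ime4het library 3, and 0.28 and 0.31 in the fits without Ime4hom libraries 1 and 2 and without wt library 3 as well, and for Shaw the last fit gave -0.20. The median over the 9 genes was -0.10, beside 0.02 over all tested genes.

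Between Ime4het and wt heads no channel gene passed the threshold. The count was 0 of 9 by edgeR, by DESeq2 and by limma-voom, beside a background of 9.32% of tested genes in the edgeR test, and 2 of 9 (Shab and eag) had an unadjusted p under 0.05, beside 23.1% of all tested genes. Shab had a log2 fold change of -0.27 ± 0.11 (adjusted p = 0.145 by edgeR) with every Ime4het library below every wt library, and its ratio of 0.831 had a 95% interval from 0.708 to 0.975. With a trend on exon length removed from every library, Shab was at -0.13 (adjusted p = 0.415 by edgeR), Shaw at -0.10, eag at -0.18 and Elk at 0.19. For Shaw the libraries were also separate, which makes 2 of 9 genes all lower in Ime4het heads, beside 15.6% of all tested genes, with a log2 fold change of -0.17 ± 0.12 (adjusted p = 0.419 by edgeR), and -0.11 without wt library 1. Fold changes were negative in 8 of 9 genes, beside 51.3% of all tested genes, with a median of -0.17, beside -0.01 over all tested genes. Elk was the exception in direction at 0.12 ± 0.16 (adjusted p = 0.708 by edgeR), and this sign turned to a value of -0.0017 without Ime4het library 2. For eag, the log2 fold change was -0.32 ± 0.14 (adjusted p = 0.184 by edgeR). With Ime4hom libraries 1 and 2 and wt library 3 left out, Shab was at -0.31 and eag at -0.44 in Ime4het against wt heads. Both were called in that fit, which keeps 1 Ime4hom library. More of all tested genes were called in it as well than with all 9 libraries. No result about the channel genes is read from these calls. The comparisons share libraries with each other, so they are not independent, and each gives its own values for the same genes.

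**Figure D3:**
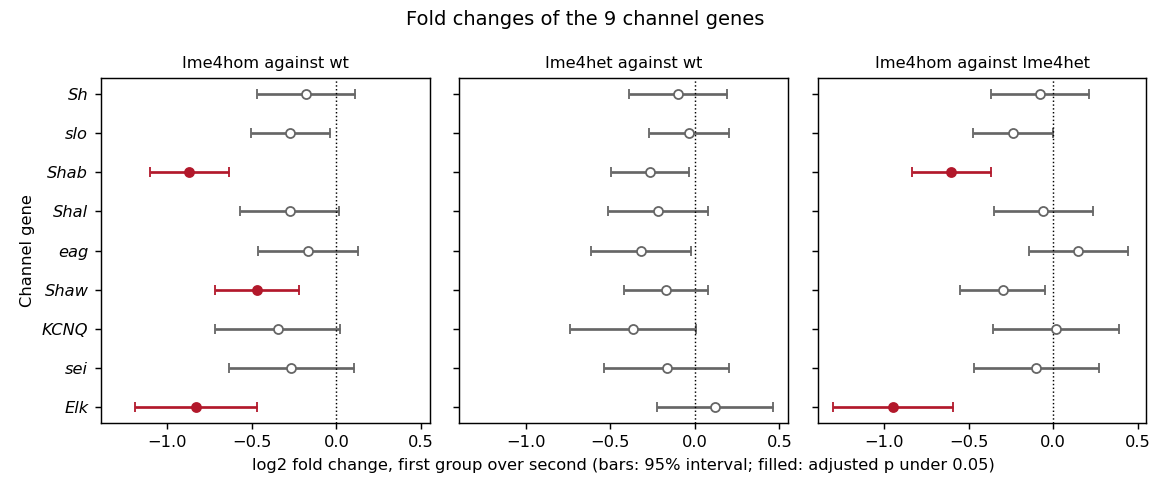
Log2 fold changes of the 9 channel genes for Ime4hom against wt, Ime4het against wt and Ime4hom against Ime4het heads, with 95% intervals and filled points for adjusted p under 0.05. Shab and Elk are filled in both comparisons of Ime4hom heads, Shaw is filled against wt, and no point is filled for Ime4het against wt.

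Sh took most of the family's reads, but less than that share per length of exon. The 9 genes together had 4104 ± 204 CPM in Ime4hom, 4502 ± 294 CPM in Ime4het and 4904 ± 534 CPM in wt heads (SD, n = 3 each), and Sh made up between 64.8% and 72.7% of their reads in a library. Per kb of exon its share was between 38.7% and 48.1%. The 8 genes other than Sh summed to 1179 ± 70.1 CPM in Ime4hom, 1409 ± 43.2 CPM in Ime4het and 1587 ± 68.7 CPM in wt heads. The sums without Sh were separate in the 3 groups, between 1101 and 1238 CPM in Ime4hom, between 1365 and 1451 CPM in Ime4het and between 1511 and 1646 CPM in wt libraries. Of these 8 genes Shab had the largest difference between Ime4hom and wt heads, at -206 CPM, followed by slo at -92.9 CPM. The sums with Sh overlapped, between 3939 and 4333 CPM in Ime4hom, between 4163 and 4693 CPM in Ime4het and between 4299 and 5308 CPM in wt libraries. No trend on exon length was removed from these sums. Across the 9 libraries, Shab and Shaw were the most alike pair of the family (Pearson r of log2 CPM 0.975, n = 9), followed by Shab and Elk (0.851) and Shab and slo (0.819). The lowest value was -0.20, for Sh and sei. These correlations are descriptions over libraries that fall into 3 groups, and all values of a library share its depth and scaling.

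The 9 genes are long. Their annotated exon lengths ran from 3278 bp for sei to 22801 bp for Sh, between the 69.5th and the 99.8th percentile of the 8792 tested genes with a known length, whose median is 2216 bp. A smooth trend on exon length was fitted in each library to the log2 CPM deviations of these 8792 genes from their means over all libraries. Its mean in Ime4hom minus that in wt libraries was lower for the longer of the 9 genes. This difference stood at -0.05 at the length of sei, -0.12 at that of Shaw, -0.13 at that of Elk, -0.22 at that of Shab and -0.28 at that of Sh. With this trend taken out of every library, Shab was at -0.65 (adjusted p = 3.98e-04), Elk at -0.71 (adjusted p = 0.0111) and Shaw at -0.35 (adjusted p = 0.0258), all 3 still called by edgeR. The values of Sh and eag changed sign, to 0.12 and 0.04, and neither passed the threshold, so 7 of 9 fold changes stayed negative. The value of slo was -0.06. The share of reads counted to no feature was 17.2% to 20.0% in Ime4hom, 19.1% to 28.4% in Ime4het and 26.2% to 31.7% in wt libraries. The Ime4hom and wt libraries were thus separate. Where these reads lie is not given, and their part in the results was not tested.

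**Figure D4:**
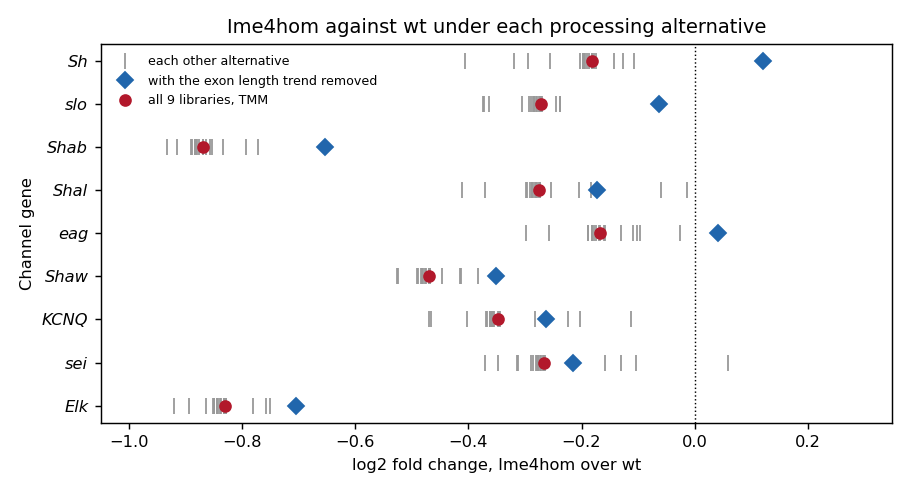
Log2 fold change of each channel gene in Ime4hom against wt heads with all 9 libraries and TMM scaling (circle), with the trend on exon length removed (diamond) and under each other alternative (ticks). Shab, Elk and Shaw stay left of 0 under every alternative, and Sh and eag lie right of 0 once the trend on exon length is removed.

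Other potassium channels were measured beside the 9. Of 17 such genes 16 could be tested, and in Ime4hom against wt heads 2 fell and 0 rose, with a median log2 fold change of -0.02. The pair that fell was Irk3, an inward rectifier, at -0.58 ± 0.19 (adjusted p = 0.0450 by edgeR) and Task6, a leak channel, at -0.45 ± 0.14 (adjusted p = 0.0350 by edgeR). The call of Irk3 was lost without any 1 library except Ime4hom library 1, at log2 fold changes between -0.62 and -0.49 and adjusted p-values up to 0.122, and under 14 of 20 alternatives in all. Task6 was lost without Ime4hom library 1 or 2 or any 1 wt library, at log2 fold changes between -0.49 and -0.34, and under 9 of 20 alternatives. Without Ime4hom libraries 1 and 2 it was at -0.26, and at -0.22 without wt library 3 as well. The nearest relatives of 2 of the 9 genes, Shawl and SLO2, were at -0.44 ± 0.17 and -0.25 ± 0.11 (adjusted p = 0.0764 and 0.128 by edgeR), and neither was called. Shawl was called without Ime4hom library 3, at -0.61 (adjusted p = 0.0103 by edgeR). It was at -0.18 without Ime4hom libraries 1 and 2 and at -0.20 without wt library 3 as well, fits that keep 1 Ime4hom library. With the trend on exon length removed SLO2 was at -0.05. None of the 16 was called in Ime4het against wt or in Ime4hom against Ime4het heads.

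Among 10 genes for partners and modulators of these channels, 1 fell and 1 rose in Ime4hom against wt heads, with a median log2 fold change of -0.17. CASK, a membrane scaffold that in the fly acts with CaMKII on the eag channel, had 278 ± 19.0 CPM in Ime4hom, 378 ± 17.0 CPM in Ime4het and 440 ± 52.6 CPM in wt heads, and it fell against wt by 0.66 ± 0.12 (adjusted p = 0.00193 by edgeR). Cam, which encodes the calcium sensor calmodulin, had 24306 ± 150 CPM in Ime4hom, 20667 ± 1782 CPM in Ime4het and 11361 ± 451 CPM in wt heads. It rose in Ime4hom against wt heads by 1.10 ± 0.12 (adjusted p = 5.39e-05 by edgeR) and in Ime4het against wt heads by 0.86 ± 0.12 (adjusted p = 8.19e-04 by edgeR), the 1 call in that comparison. The modulator of the Sh channel qvr, known as sleepless, was at -0.35 ± 0.13 in Ime4hom against wt heads (adjusted p = 0.0729 by edgeR) and was called at -0.47 without wt library 3. Slob, which encodes a protein that binds the slo channel, was at -0.27 ± 0.11 (adjusted p = 0.102 by edgeR) and was called at -0.33 without Ime4hom library 3. With the trend on exon length removed qvr was at -0.22 and Slob at -0.11. In Ime4hom against Ime4het heads CASK and CaMKII fell, by 0.44 ± 0.12 and 0.41 ± 0.11 (adjusted p = 0.0457 and 0.0410 by edgeR). These last calls were lost under 11 and 12 of 20 alternatives. Either was lost without Ime4hom library 1 or 2, any 1 Ime4het library, or wt library 1 or 2, at log2 fold changes between -0.50 and -0.37.

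A list of other cation channel genes held voltage-gated sodium and calcium channels, the hyperpolarization-activated channel Ih, the sodium leak channel, and auxiliary subunits of these. Of 16 tested, 8 fell and 1 rose in Ime4hom against wt heads, with a median log2 fold change of -0.45. With the trend on exon length removed 6 fell and 2 rose (Teh1 and Ih), with a median of -0.37. There unc80, another auxiliary subunit of the sodium leak channel, lost its call (adjusted p = 0.0783 by edgeR). With all libraries unc80 was at -0.49. It was at -0.44 without Ime4hom libraries 1 and 2 and at -0.41 without wt library 3 as well, fits that keep 1 Ime4hom library. The genes that fell included stol, an auxiliary subunit of calcium channels, at -1.03 ± 0.14, and Ca-alpha1T and Ca-alpha1D, pore-forming calcium channel subunits of the T and L type, at -0.90 ± 0.12 and -0.90 ± 0.11. NaCP60E, a relative of the sodium channels, was at -0.73 ± 0.14, or -0.47 with the trend on exon length removed, and unc79, an auxiliary subunit of the sodium leak channel, at -0.76 ± 0.11. The gene that rose was Teh1, which encodes an auxiliary subunit of sodium channels, at 0.56 ± 0.13 (adjusted p = 0.00920 by edgeR), while its relative Teh2 fell at -0.59 ± 0.14 (adjusted p = 0.0101 by edgeR). Without Ime4hom libraries 1 and 2 Teh2 was at -0.94, and at -0.99 without wt library 3 as well. In Ime4het against wt heads 2 of the 16 fell, Ca-alpha1D at -0.56 ± 0.11 and Teh2 at -0.50 ± 0.14 (adjusted p = 0.00708 and 0.0408 by edgeR). The call of Teh2 was lost without any 1 Ime4het or wt library, at log2 fold changes between -0.57 and -0.43, and that of Ca-alpha1D without Ime4het library 3, at -0.50. In Ime4hom against Ime4het heads 4 fell and 1, Teh1, rose, and its call was lost without Ime4het library 1 or 2, at 0.59 and 0.57 (adjusted p = 0.0920 and 0.0816).

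Markers of cell types were measured beside the channels. In Ime4hom against wt heads 6 of 16 tested neuron markers fell and 0 rose, with a median log2 fold change of -0.28. With the trend on exon length removed the median was -0.12 for the neuron markers and -0.21 for the 9 channel genes. Syt1, the calcium sensor of synaptic vesicles, was at -1.02 ± 0.11, the neuronal cadherin CadN at -0.97 ± 0.12 and the neuronal RNA-binding protein gene elav at -0.83 ± 0.16. These were the lowest values among the 16 neuron markers, which ran up to 0.24. The summed level of the 16 neuron markers was between 17154 and 19363 CPM in Ime4hom, between 18991 and 19497 CPM in Ime4het and between 19270 and 22416 CPM in wt libraries. The Ime4hom and wt groups overlapped only through wt library 3, the lowest of its group. Fold changes against wt were negative in 14 of the 16 markers, and no neuron marker was at 0 in a group. Muscle markers summed to between 29530 and 39345 CPM in Ime4hom, between 46546 and 49783 CPM in Ime4het and between 27928 and 31686 CPM in wt libraries. The counts of other markers in Ime4hom against wt heads were 1 of 9 lower for glia, 4 of 13 lower and 2 higher for photoreceptors, 2 of 12 higher for muscle and 3 of 7 higher for fat body. Fat body markers summed to 9143, 8890 and 3419 CPM in Ime4hom libraries 1, 2 and 3. In wt libraries they summed to between 4172 and 6193 CPM, so Ime4hom library 3 lay below every wt library. Ovary markers had 0 tested genes. Of 20 gut enzyme genes 6 were tested and called higher, but their high levels lay in Ime4hom libraries 1 and 2. Genes such as betaTry, at most 4.09 CPM in wt and up to 180 CPM in Ime4hom libraries, passed the filter largely through these libraries. Their direction is therefore no result about the group. In Ime4het against wt heads, where no channel gene was called, 4 neuron markers fell and 1 rose, and 7 muscle markers rose. The part of these markers in the channel results was not tested.

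**Figure D5:**
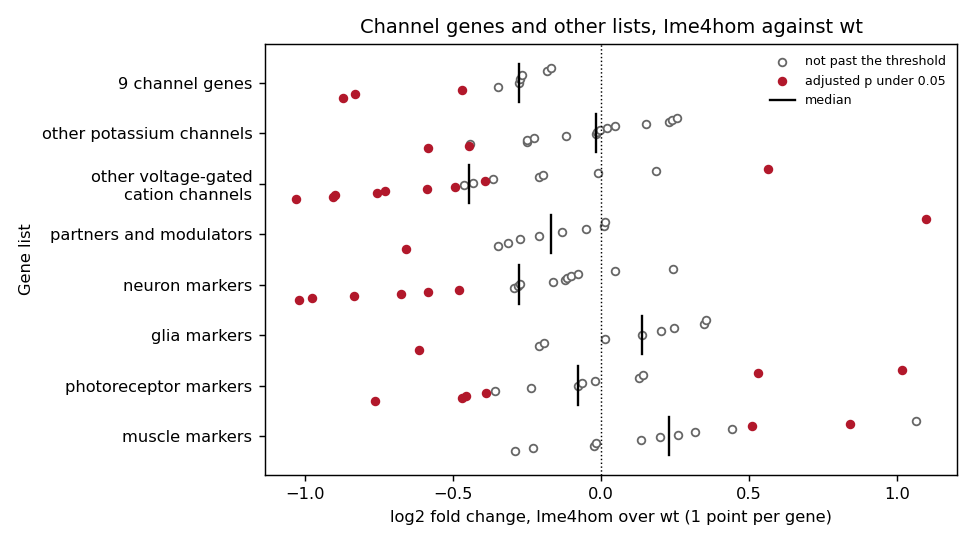
Log2 fold changes with TMM scaling in Ime4hom against wt heads, with 1 point per tested gene, for the 9 channel genes, the other channel and partner lists and 4 marker lists, with a bar at each median and filled points for adjusted p under 0.05. The median is -0.28 for the 9 channel genes and for the neuron markers, -0.45 for the other voltage-gated cation channels and -0.02 for the other potassium channels.

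For each of the 3 called channel genes, the tested genes outside the family with the most similar pattern were found by Pearson correlation of log2 CPM over the 9 libraries. The genes most like Shab were Ca-alpha1T, the ankyrin gene Ank2 and CG4080, each at 0.978. Ank2 averaged 681 ± 112 CPM in Ime4hom, 1138 ± 41.4 CPM in Ime4het and 1713 ± 173 CPM in wt heads. Those most like Shaw were CG31221 at 0.982, Vmat, the vesicular monoamine transporter gene, at 0.981 and mei-P26 at 0.971. For Elk they were CG31064 at 0.972, the cuticular protein gene Cpr11B at 0.969 and CG45076 at 0.967. Cpr11B averaged 147 ± 15.7 CPM in Ime4hom, 523 ± 118 CPM in Ime4het and 421 ± 71.3 CPM in wt heads. These genes were picked for their likeness over the same libraries, so a like order of the groups was fixed by the choice.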

How the data were processed

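Trizol extraction, poly(A) selection with oligo-dT beads and a directional library kit were used, per the labels' protocols. Per the submitters' processing notes, CASAVA 1.8.4, STAR 2.4.0h, HTSeq 0.6.1 and DESeq2 1.6.3 were used with assembly BDGP6. The authors deposited unnormalized read counts per gene, and 5 summary lines per library were kept out of totals and tests: between 17.2% and 31.7% of reads had no feature, 1.11% to 1.61% were ambiguous and 8.96% to 16.0% were not unique. The 9 genes were matched by symbol in an Ensembl annotation of BDGP6, which held 17252 of the 17558 IDs and gave coordinates and exon lengths. Genes were filtered with filterByExpr (minimum count 10, total 15), which left 8972. edgeR 4.0.16 (R 4.3.3) was used with TMM factors (0.9583 to 1.075) and its quasi-likelihood test on 3 group means, with Benjamini-Hochberg adjustment, a threshold of 0.05, and 95% intervals from the fitted SE. The steps were tested on simulated counts with 200 changed genes in Ime4hom libraries, in 10 draws. In Ime4hom against wt they recovered 20.8% of changes of 1.5 times, 63.1% of 2 times and 92.3% of 4 times. The 200 changed genes were drawn from all tested genes and were fewer than the 1765 called in the data. The shares recovered are therefore not those of the 9 channel genes. An uncalled gene may differ by 1.5 times or more. Correlations used log2 CPM with a prior count of 2.

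Alternatives were other size factors, other filters, DESeq2 1.42.0, limma-voom (limma 3.58.1), the compared groups alone, the replicate number as a block, a trend on exon length removed per library (180 tested genes had no length) and leaving libraries out. Replicate numbers did not pair the libraries. Members and lists were chosen with earlier results of these data known, and adjusted p-values come from the fit over all tested genes. By rule, the text may name all 9 genes, list genes called or among the 4 lowest p in Ime4hom against wt, overlapping genes, and the 3 genes most like each called member. The genes para, Ca-beta, VAChT and wupA of the lists were not analysed here.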

Additional observations from a re-analysis of the deposited data

How the results depend on the processing

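Each fold change of the 9 channel genes was recomputed under 20 alternatives in the 3 comparisons. Of 540 recomputed values, 517 kept their direction and their side of the threshold. In Ime4hom against wt heads 3 genes were called, and leaving out 1 library gave between 3 and 4, with Shal as the added gene without Ime4hom library 3. The call of Shaw was not kept in the 2 fits that keep 1 Ime4hom library, and it was kept under the 18 other alternatives. In Ime4het against wt heads the count was 0 under every alternative but 1, and leaving out 1 library gave between 0 and 0. The exception was the fit without Ime4hom libraries 1 and 2 and wt library 3. That fit kept 1 Ime4hom library, and more of all tested genes were called there as well. In Ime4hom against Ime4het heads the count was 2 under all alternatives, between 2 and 2 without 1 library. With the replicate number as a block the counts were 3, 0 and 2, and the calls of Irk3 in Ime4hom against wt (adjusted p = 0.0626) and of CASK and CaMKII in Ime4hom against Ime4het heads (adjusted p = 0.0701 and 0.0741, edgeR) were lost. As a check of the pairing, deviations from group means correlated at -0.0659 to 0.117 in same-numbered libraries, and at -0.114 to 0.114 in differently numbered ones.

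The values that changed sign were all below the threshold, and the cause was not tested. With the trend on exon length removed, Sh was at 0.122 in Ime4hom against wt, 0.0638 in Ime4het against wt and 0.0581 in Ime4hom against Ime4het heads, eag at 0.0415 in Ime4hom against wt, and slo at 0.0942 in Ime4het against wt. Without Ime4hom libraries 1 and 2 and wt library 3, sei was at 0.0584 in Ime4hom against wt. With 1 library left out, Elk in Ime4het against wt lay between -0.0017 (without Ime4het library 2) and 0.199, and in Ime4hom against Ime4het heads Shal lay between -0.195 and 0.0334, sei between -0.208 and 0.0074 (both highest without Ime4hom library 2) and KCNQ between -0.102 and 0.141, negative without Ime4hom library 2 or 3 or Ime4het library 1 or 3. In that comparison Shal was at 0.144 without Ime4hom libraries 1 and 2 and at 0.176 without wt library 3 as well, sei was at 0.0522 and 0.0837 in the same fits, and KCNQ was at -0.0011 with limma-voom.

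The count over all tested genes was 1765 in Ime4hom against wt heads, between 1130 (without wt library 2) and 2477 (without Ime4hom library 3) without 1 library. It was 836 in Ime4het against wt heads, between 362 (without Ime4het library 3) and 1442 (without Ime4hom library 3), and 492 in Ime4hom against Ime4het heads, between 139 (without Ime4het library 1) and 1099 (without Ime4hom library 3). Without TMM factors, 26 of 27 group levels of the channel genes moved by less than 1 SD, and Shab in Ime4het heads was at 369 CPM in place of 379 CPM. Elk, KCNQ and sei had at most 206 reads in a library, which limits what can be told from their uncalled differences.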

Other observations

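Ratios between channel genes within a library were chosen after their values were seen, carry no test and do not depend on the scaling between libraries. The ratio of Shab to Sh reads was 0.0755 to 0.100 in Ime4hom, 0.112 to 0.140 in Ime4het and 0.131 to 0.153 in wt libraries, so the Ime4hom libraries lay below all others. Likewise Shab to slo was 0.475 to 0.634 in Ime4hom, 0.700 to 0.729 in Ime4het and 0.820 to 0.882 in wt libraries, with no overlap between the 3 groups. Elk to eag was 0.0829 to 0.117 in Ime4hom, 0.181 to 0.220 in Ime4het and 0.125 to 0.201 in wt libraries. Elk to sei was 0.479 to 0.747 in Ime4hom, 0.817 to 1.35 in Ime4het and 0.767 to 0.906 in wt libraries. Shaw to Shal overlapped between the groups, at 0.507 to 0.642 in Ime4hom, 0.627 to 0.710 in Ime4het and 0.569 to 0.724 in wt libraries.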
